A study of Mus musculus with 6 samples.

Results

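The antioxidant and FoxO pathway genes described here are a list of 37 genes. They comprise 3 FoxO transcription factors, the superoxide dismutases, catalase, glutathione peroxidases, peroxiredoxins, the thioredoxin and glutathione systems, the regulators NRF2 and KEAP1, and detoxifying transferases and aldehyde dehydrogenases. A gene was included where a probe set of the array carried its symbol alone. Where several did, the one of highest mean expression stood for the gene. That held for 33 of the 37 genes, among 22180 genes in all, and all 33 were among the 16635 genes tested, which had a mean of at least 3.01 log2 units. Prdx1 and Gstm5 were listed only on probe sets shared with other genes, and Prdx5 and Prdx6 were on no probe set named in the annotation used, so these 4 were not analysed here. The one measured value in this rule is that mean, taken over all 6 arrays without regard to group.

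RNA came from LT-HSC, the long-term haematopoietic stem cells of mice, that were sorted by flow cytometry from C57/BL6 bone marrow 4 months after a bone marrow transplantation. The groups were 3 pools of animals expressing NPMc+, the cytoplasmic mutant of nucleophosmin, and 3 pools of control animals, numbered 1 to 3 in each group, with 1 array per pool. Every mouse had been transplanted, and the promoter behind the mutant protein, the ages of the animals and the number per pool are not stated in the sources used here. The title of the series names dormancy and self-renewal of stem cells in myeloid leukaemia as its subject.

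Blood stem cells keep reactive oxygen species low. Superoxide dismutases turn superoxide into hydrogen peroxide, which catalase, glutathione peroxidases and peroxiredoxins remove, and thioredoxin and glutathione supply the electrons for the peroxidases. FoxO factors, held in the cytoplasm when AKT phosphorylates them, switch on some of these enzymes together with cell cycle inhibitors, and mice without them lose stem cell quiescence. NRF2, released from KEAP1 under oxidative stress, drives a partly overlapping set of genes through short DNA elements in their promoters.

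Values are log2 expression, and differences are NPMc+ minus control within same-numbered pools. Replicate effects had already been taken out of the deposited values, so that the array values of the groups mirror each other around a common mean and only the 3 pair differences carry an independent spread. Array medians lay between 3.9 and 3.99. Markers of LT-HSC, at a mean level of 6.21 to 6.45 on the NPMc+ arrays and 5.71 to 5.95 on the control arrays, stood beside those of neutrophils and monocytes, at 9.13 to 9.58 on the NPMc+ arrays and 9.68 to 10.13 on the control arrays. The sex-linked RNA Xist differed by -5.44, -5.39 and 0.48 in pairs 1, 2 and 3. In pairs 1 and 2 the groups thus differed strongly in a sex-linked RNA as well as in NPMc+. The part of sex in the differences described here was not tested.

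Promoter sequences are shown for the genes whose groups did not overlap and that hold a match to an NRF2 element core, and for Gstp1, with the widest spread over pairs, and Txnip, which holds a FoxO element. The letters searched were TGACNNNGC and TGAGNNNGC on both strands, from 250 bases before to 50 after each start annotated in RefSeq (build GRCm38.p6), with matches in capitals. A core of this kind lay in 27.8% of 32851 promoters and in at least 1 promoter of 8 of the 27 tested genes that had an entry, namely Aldh1a1, Gclm, Gstp1, Nfe2l2, Sod1, Srxn1, Txn2 and Txnrd1. The FoxO element GTAAACA lay in 3.65% of promoters and, of the tested genes, in that of Txnip.
Srxn1 (chr2:152105274-152105573, plus strand): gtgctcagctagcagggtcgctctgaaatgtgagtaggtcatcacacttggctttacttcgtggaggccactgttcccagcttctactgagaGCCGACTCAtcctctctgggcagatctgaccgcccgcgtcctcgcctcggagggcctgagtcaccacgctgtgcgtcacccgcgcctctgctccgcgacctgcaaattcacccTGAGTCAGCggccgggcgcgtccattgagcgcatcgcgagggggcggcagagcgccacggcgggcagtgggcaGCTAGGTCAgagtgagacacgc
Txnrd1, the one of its 3 annotated starts with a match (chr10:82858956-82859255, plus strand): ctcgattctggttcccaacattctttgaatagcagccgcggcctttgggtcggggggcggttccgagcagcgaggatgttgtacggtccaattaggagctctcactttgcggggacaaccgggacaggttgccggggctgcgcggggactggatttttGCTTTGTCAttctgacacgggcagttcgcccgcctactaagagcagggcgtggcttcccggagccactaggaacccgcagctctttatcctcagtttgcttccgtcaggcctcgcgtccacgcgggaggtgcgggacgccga
Aldh1a1, the one of its 2 annotated starts with a match (chr19:20601718-20602017, plus strand): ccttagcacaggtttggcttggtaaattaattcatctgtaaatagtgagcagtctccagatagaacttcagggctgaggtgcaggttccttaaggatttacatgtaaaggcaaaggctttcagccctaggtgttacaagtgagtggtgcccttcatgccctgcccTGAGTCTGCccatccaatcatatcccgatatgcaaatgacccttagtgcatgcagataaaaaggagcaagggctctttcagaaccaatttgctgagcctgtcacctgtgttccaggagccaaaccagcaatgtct
Gstp1, a window of 60 bases with 1 of its 2 matches (chr19:4037953-4038012, minus strand): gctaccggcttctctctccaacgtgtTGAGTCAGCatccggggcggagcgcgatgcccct
Txnip, a window of 60 bases around the FoxO element (chr3:96557809-96557868, plus strand): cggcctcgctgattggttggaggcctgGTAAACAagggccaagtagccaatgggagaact
Srxn1 held 3 matches, of which 1 also contains TGAGTCA, the AP-1 element, as does 1 of the 2 matches in the promoter of Gstp1. The other genes shown held 1 match each. A match describes the sequence and does not show that a factor binds there.

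Most antioxidant and FoxO genes did not differ between NPMc+ and control LT-HSC beyond the spread of the 3 pairs. In limma, 0 of the 33 had an adjusted p under 0.05, as held for all genes tested (0.0%), and the smallest adjusted p among them was 0.42. An unadjusted p under 0.05, here the threshold of a call, was reached by 2 of the 33, a share of 6.06% against 8.97% of all genes tested. Txnrd1 was the 1 gene called higher, or 3.03% against 5.95% of all genes tested, and Aldh1a1 the 1 called lower, or 3.03% against 3.02%. The difference was at least 1.5-fold for 1 of the 33, Aldh1a1, against 7.59% of all genes tested. The groups did not overlap for 5 of the 33, or 15.2%, against 30.2% of all genes tested. Of these, Cat, Srxn1 and Txnrd1 were higher in every pair, or 9.09% against 17.4%, and Aldh1a1 and Prdx4 lower in every pair, or 6.06% against 12.9%. Because the deposited values mirror each other around a common mean, groups lie apart where all pair differences share a sign. Non-overlap therefore adds nothing to the shared signs. The median difference over the 33 genes was 0.06 log2 units, against 0.03 over all genes tested, with 18 genes positive and 15 negative. Their differences ran between -0.63 and 0.55. The 95% interval lay within a 2-fold difference either way for 30 of the 33, against 83.6% of all genes tested, the exceptions being Nqo1, Gstp1 and Aldh1a1. Since RNA of sorted bulk cells was measured, fewer cells of a type and less RNA per cell cannot be told apart in any of these values.

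**Figure D1:**
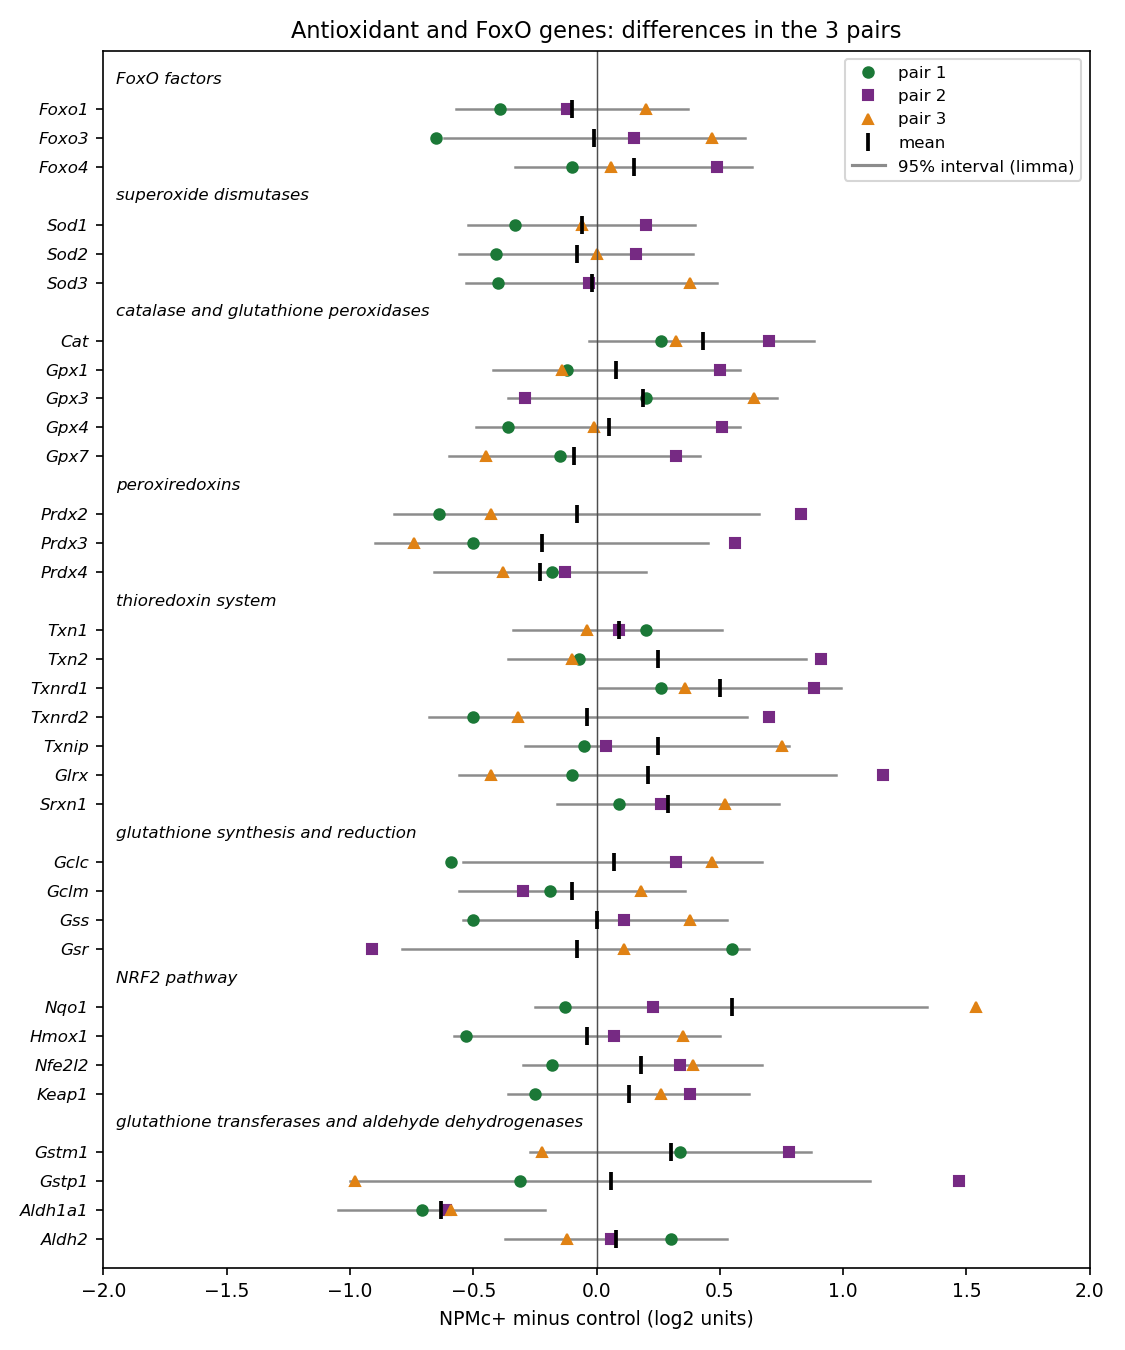
NPMc+ minus control in log2 units (x axis) for the 33 genes, ordered by role, with a symbol for each of the 3 pairs, a tick at their mean and the 95% interval of the limma fit as a line. The 3 symbols of Aldh1a1 lie together between -0.71 and -0.59, whereas those of Gstp1 are spread between -0.98 and 1.47.

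Aldh1a1, an aldehyde dehydrogenase that oxidises retinaldehyde and other aldehydes, was 1.55-fold lower in NPMc+. It had 6.81, 6.86 and 6.87 log2 units on the NPMc+ arrays, against 7.52, 7.47 and 7.46 on the control arrays. All NPMc+ values lay below all control values, which follows from the negative difference in every pair. The difference over the 3 pairs was -0.63 ± 0.17 log2 units (95% interval -1.05 to -0.21). Here and below, ± gives the SE of the limma fit, whose variance draws on all genes tested. The unadjusted p was 0.00953 and the adjusted p 0.42 in limma with the replicate block. The pair differences of -0.71, -0.61 and -0.59 had an SD of 0.06, at the 3.14th percentile of the genes tested. Without the block the adjusted p in limma was 0.0146, in a fit that counts more independent values than the deposited ones hold. Without pair 1 the difference was -0.6 and the unadjusted p 0.0566. Aldh2, the mitochondrial enzyme that removes acetaldehyde, differed by 0.08 ± 0.19, and its second, dimmer probe set by 0.3.

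Markers of several other cell types differed between the same pools. Of 12 B cell markers, 9 were called lower and 0 higher, with pair medians of -1.24, -1.06 and -1.0 and a mean level of 4.5 to 4.52 on the NPMc+ arrays against 5.65 to 5.67 on the control arrays. Of 14 erythroid markers 8 were lower and 0 higher (pair medians -0.99, -0.26 and -0.88), with a mean level of 5.73 to 6.23 on the NPMc+ arrays against 6.32 to 6.83 on the control arrays. For neutrophil and monocyte markers 10 of 20 were lower and 0 higher, with pair medians of -0.94, -0.9 and -0.04. T and NK cell markers went both ways, with 5 of 14 lower and 3 higher, at a mean level of 4.78 to 5.0 on the NPMc+ arrays against 5.28 to 5.51 on the control arrays. Megakaryocyte markers were higher for 7 of 11 and lower for 1, at a mean level of 5.73 to 5.89 on the NPMc+ arrays against 5.11 to 5.27 on the control arrays. LT-HSC markers were higher for 7 of 15 and lower for 0, with pair medians of 0.34, 0.35 and 0.7. The 7 were Mecom, Hoxb5, Kit, Angpt1, Meis1, Gata2 and Ctnnal1. The 8 not called, Procr, Slamf1 and Fgd5 among them, had differences between -0.28 for Gprasp2 and 0.5 for Hlf. None of these levels is a true zero on this scale, and the part of these cells in the differences of Aldh1a1 or of any other gene described here was not tested.

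**Figure D2:**
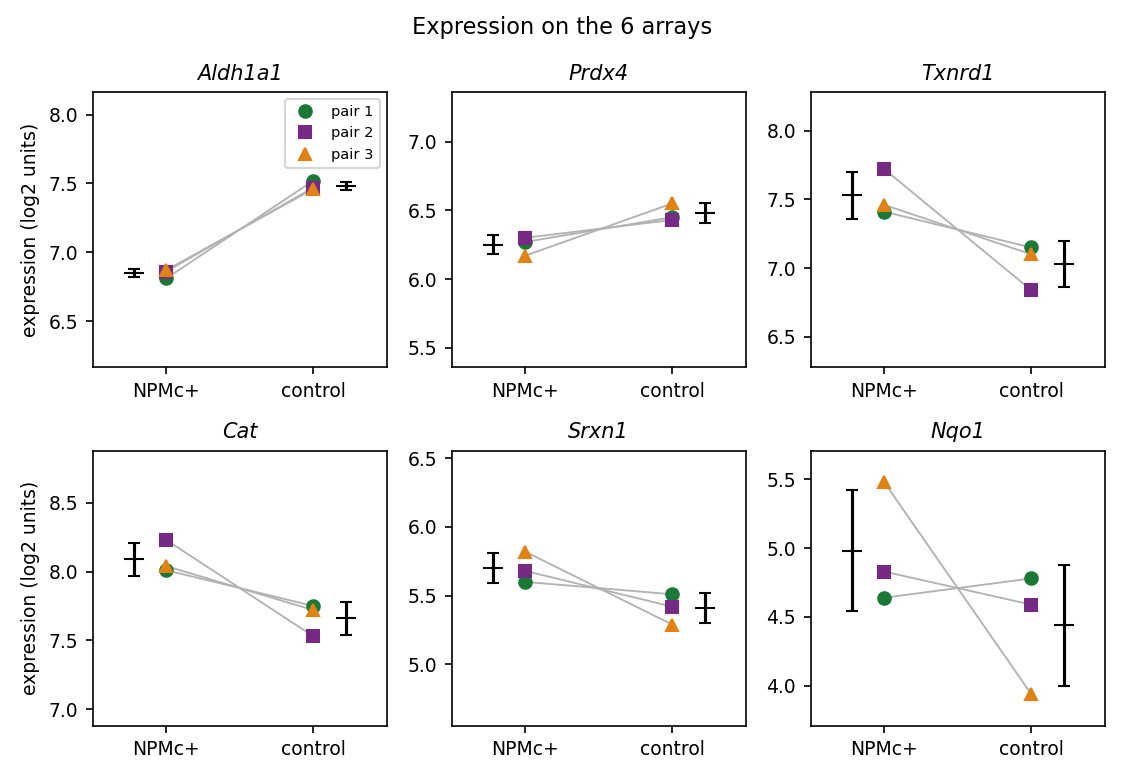
Expression in log2 units (y axis, each panel spanning 2 units) on the 3 NPMc+ and 3 control arrays for 6 genes, with grey lines joining same-numbered pools and bars for the mean and SD of each group. As the values mirror each other around a common mean, both groups have the same SD for a gene. It reflects the pair differences and is no measure of the spread of pools within a group. The groups are apart for Aldh1a1, Prdx4, Txnrd1, Cat and Srxn1, whose pair differences share a sign. For Nqo1 the groups overlap and pair 3 differs most, by 1.54.

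The 3 FoxO factors differed by less than the spread of the pairs. Foxo3, the member with the best known role in stem cell maintenance, had 6.51, 6.91 and 7.07 log2 units in NPMc+ and 7.16, 6.76 and 6.61 in control. Its mean difference of -0.01 ± 0.25 (95% interval -0.62 to 0.6) combined pair differences of -0.65, 0.15 and 0.47, which went in opposite directions. Foxo1 had 5.77, 5.9 and 6.06 in NPMc+ and 6.16, 6.02 and 5.86 in control, a difference of -0.1 ± 0.2. Foxo4, a gene of the X chromosome, had 5.33, 5.63 and 5.41 in NPMc+ and 5.43, 5.14 and 5.35 in control, a difference of 0.15 ± 0.2. The groups overlapped for all 3, and the second probe set of Foxo1 differed by -0.01. FoxO activity depends largely on phosphorylation and location of the protein, which an array does not read.

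Several known targets of FoxO factors were called higher. Of 26 target genes measured, 6 were called higher and 0 lower, or 23.1% against 8.97% of all genes tested, and 0 had an adjusted p under 0.05 in limma. This list, like the others here, was chosen with earlier results of these data known, Cdkn1a and Cited2 being among its genes. The share is therefore a description and no test of FoxO targets. The list's median difference was 0.24 log2 units, and its median was positive in every pair, at 0.07, 0.31 and 0.18. Cdkn1a, the cell cycle inhibitor p21, was 1.59-fold higher (0.67 ± 0.18). Gabarapl1, of the autophagosome, differed by 0.58 ± 0.23, the death ligand gene Tnfsf10 by 0.54 ± 0.18, the transcriptional coregulator gene Cited2 by 0.52 ± 0.21, Sesn3, which restrains mTORC1, by 0.49 ± 0.2 and Pink1, a kinase that marks damaged mitochondria, by 0.48 ± 0.19. The count was 1, Cdkn1a, without pair 2, 3 without pair 3, 3 after centring each pair on its median and 2, Cdkn1a and Tnfsf10, after quantile normalization. Many of these genes also answer to other factors, Cdkn1a to p53 among them.

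A list of 21 genes held the PI3K, AKT and mTOR pathway and other genes linked to FoxO, such as Sirt1, Mdm2, Mapk8 and Foxo6 itself. Of these, 2 were higher and 0 lower, or 9.52%, against 8.97% of all genes tested. Akt1, which encodes a kinase that inactivates FoxO factors, differed by 0.52 ± 0.19 log2 units, and Rptor, which encodes the mTORC1 subunit raptor, by 0.61 ± 0.22. The median of the 21 was 0.16. Neither gene was called without pair 2 or without pair 3.

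The superoxide dismutases did not differ beyond the spread of the pairs. Sod1, the cytosolic copper and zinc enzyme, had 11.5, 11.77 and 11.64 log2 units in NPMc+ and 11.83, 11.57 and 11.7 in control, a difference of -0.06 ± 0.19 (95% interval -0.52 to 0.4). The mitochondrial manganese enzyme gene Sod2 had 7.62, 7.9 and 7.82 in NPMc+ and 8.03, 7.74 and 7.82 in control. Sod2 differed by -0.08 ± 0.2, and Sod3, the extracellular enzyme, by -0.02 ± 0.21. Sod3 had 3.89, 4.07 and 4.28 in NPMc+ and 4.29, 4.1 and 3.9 in control. It was dim, beside array medians of 3.9 to 3.99, and whether its RNA was detected was not tested. For each of the 3 genes pair 1 was the most negative pair, at -0.33, -0.41 and -0.4.

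Cat, the peroxisomal enzyme that breaks down hydrogen peroxide, had 8.01, 8.23 and 8.04 log2 units in NPMc+ and 7.75, 7.53 and 7.72 in control. Every pair difference was positive, so that the groups did not overlap. The mean difference of 0.43 ± 0.19 (95% interval -0.03 to 0.88) had an unadjusted p of 0.0617 in limma. Gpx1, the selenium-dependent cytosolic glutathione peroxidase, had 11.87, 12.18 and 11.86 in NPMc+ and 11.99, 11.68 and 12.0 in control, a difference of 0.08 ± 0.21. Its groups overlapped, with pair 2 at 0.5 and the other pairs at -0.12 and -0.14. Gpx3, the secreted form, differed by 0.19 ± 0.23, and Gpx4, which reduces lipid peroxides, by 0.05 ± 0.22. Gpx7, of the endoplasmic reticulum, differed by -0.09 ± 0.21. Gpx3 and Gpx7 were dim, with control means of 4.02 and 4.01 beside array medians of 3.9 to 3.99. Whether their RNA was detected was not tested.

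Peroxiredoxins are thiol enzymes that remove hydrogen peroxide, and 3 of the 6 in the list could be analysed. Prdx4, of the endoplasmic reticulum, had 6.27, 6.3 and 6.17 log2 units in NPMc+ and 6.45, 6.43 and 6.55 in control. Its pair differences were all negative, so that its groups did not overlap, but the difference of -0.23 ± 0.18 did not pass (unadjusted p = 0.244 in limma). Prdx2, abundant in red cells, differed by -0.64, 0.83 and -0.43 in pairs 1, 2 and 3, and the mitochondrial Prdx3 by -0.5, 0.56 and -0.74. For both, pair 2 went against the other pairs, and the SD of the pair differences lay at the 92.9th percentile for Prdx2 and at the 88.7th for Prdx3. Erythroid markers, with pair medians of -0.99, -0.26 and -0.88, were least negative in pair 2 too, and their part was not tested. Without pair 2, Prdx3 differed by -0.62 with an unadjusted p of 0.0328.

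In the thioredoxin system 1 of 7 genes was called, or 14.3%, against 8.97% of all genes tested. Txnrd1, the cytosolic selenoenzyme that reduces thioredoxin, had 7.41, 7.72 and 7.46 log2 units in NPMc+ and 7.15, 6.84 and 7.1 in control. Every pair difference was positive, so that every NPMc+ value was above every control value. The difference of 0.5 ± 0.2 (1.41-fold; 95% interval 0.01 to 0.99) had an unadjusted p of 0.047 and an adjusted p of 0.551 in limma. The call is at the edge of the threshold: without pair 2 the difference was 0.31 with an unadjusted p of 0.208, and after quantile normalization it was 0.43 with 0.0698. Srxn1, sulfiredoxin, which repairs overoxidised peroxiredoxins, had 5.6, 5.68 and 5.82 in NPMc+ and 5.51, 5.42 and 5.29 in control. Its pair differences were all positive, so that its groups did not overlap, and its mean difference was 0.29 ± 0.19 (unadjusted p = 0.168 in limma).

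Txnip, which binds and inhibits thioredoxin and is a known FoxO target, had 9.52, 9.57 and 9.92 log2 units in NPMc+ and 9.57, 9.52 and 9.17 in control. Its difference of 0.25 ± 0.22 lay in pair 3, at 0.75, while pairs 1 and 2 were at -0.05 and 0.04. Txn1, cytosolic thioredoxin, differed by 0.09 ± 0.18, and its pair differences had an SD of 0.12, the smallest of the 33 genes after Aldh1a1. The mitochondrial partners Txn2 and Txnrd2 differed by 0.25 ± 0.25 and -0.04 ± 0.27, and Glrx, glutaredoxin, by 0.21 ± 0.32, each with pair 2 the only positive pair, at 0.91, 0.7 and 1.16.

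Genes of glutathione synthesis did not differ beyond the spread of the pairs. The subunits of the rate-limiting ligase, Gclc and Gclm, differed by 0.07 ± 0.25 and -0.1 ± 0.19. Gss, glutathione synthetase, had pair differences of -0.5, 0.11 and 0.38 (95% interval of the mean -0.54 to 0.53). Gsr, which returns oxidised glutathione to its reduced form, differed by 0.55, -0.91 and 0.11 in pairs 1, 2 and 3, and was the member with the most negative value in pair 2.

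NRF2 and its inhibitor differed by less than the spread of the pairs. Nfe2l2, which encodes NRF2, had 9.04, 9.3 and 9.32 log2 units in NPMc+ and 9.22, 8.96 and 8.93 in control, a difference of 0.18 ± 0.2. Keap1, the adaptor that sends NRF2 for degradation, had 4.91, 5.23 and 5.17 in NPMc+ and 5.16, 4.85 and 4.91 in control, a difference of 0.13 ± 0.2, and its second probe set differed by 0.04. The groups overlapped for both genes. Nqo1, a quinone reductase and classic NRF2 target, had the highest mean difference of the 33 genes, 0.55 ± 0.33. Its pair differences were -0.13, 0.23 and 1.54, so that the mean rested on pair 3. In that pair its control value was 3.94, within the array medians of 3.9 to 3.99. Hmox1, which degrades heme, differed by -0.04 ± 0.23.

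Among other partners and targets of NRF2, 2 of 19 genes were higher and 0 lower, or 10.5% against 8.97% of all genes tested, and the median was 0.03. Bach1, which encodes a repressor that competes with NRF2 at its elements until heme removes it, was 1.87-fold higher in NPMc+ (0.91 ± 0.18 log2 units; 95% interval 0.48 to 1.33). Its pair differences were 0.78, 0.96 and 0.98, and its adjusted p in limma was 0.318. Abcc1, an exporter of glutathione conjugates, was 1.57-fold higher (0.65 ± 0.19). Bach1 was called with each pair left out in turn, whereas Abcc1 was not called without pair 3.

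The glutathione transferase genes Gstp1 and Gstm1 were not called with all pairs. Gstp1 differed by -0.31, 1.47 and -0.98 in pairs 1, 2 and 3, with an SD of 1.27 at the 98.9th percentile of the genes tested, and its mean difference of 0.06 ± 0.44 had a 95% interval of -1.0 to 1.11. Without pair 2 it differed by -0.65, with an unadjusted p of 0.0472 in limma. Gstm1 differed by 0.3 ± 0.24. Outside the list, the related genes Gstm2 and Gstm4 were 1.97-fold and 1.67-fold higher (0.98 ± 0.31 and 0.74 ± 0.17), and Gsta4, which conjugates products of lipid peroxidation, was 1.53-fold higher (0.62 ± 0.22). Gstm2 and Gstm4 were dim, with control means of 3.65 and 4.2 beside array medians of 3.9 to 3.99. The pair differences of Gstm2 were 0.09, 1.58 and 1.27. Genes of the Gstm and Gstp families are similar in sequence, and which of them a probe set reads is uncertain.

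These genes belong to a wider list of glutathione, thioredoxin and selenoprotein genes, of which 4 of 28 were higher and 0 lower, or 14.3% against 8.97% of all genes tested. The fourth was Txndc12, a thiol oxidoreductase of the endoplasmic reticulum, at 0.8 ± 0.19 log2 units. The median of the 28 genes was 0.14, with 20 differences positive and 8 negative. Among the negative were the transferase genes Mgst1, Mgst2, Mgst3 and Gstt1, at -0.7, -0.47, -0.37 and -0.3, not called with all pairs. Gstm4 and Txndc12 were called with each pair left out in turn, while Gstm2 and Gsta4 were not called without pair 2 or without pair 3.

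**Figure D3:**
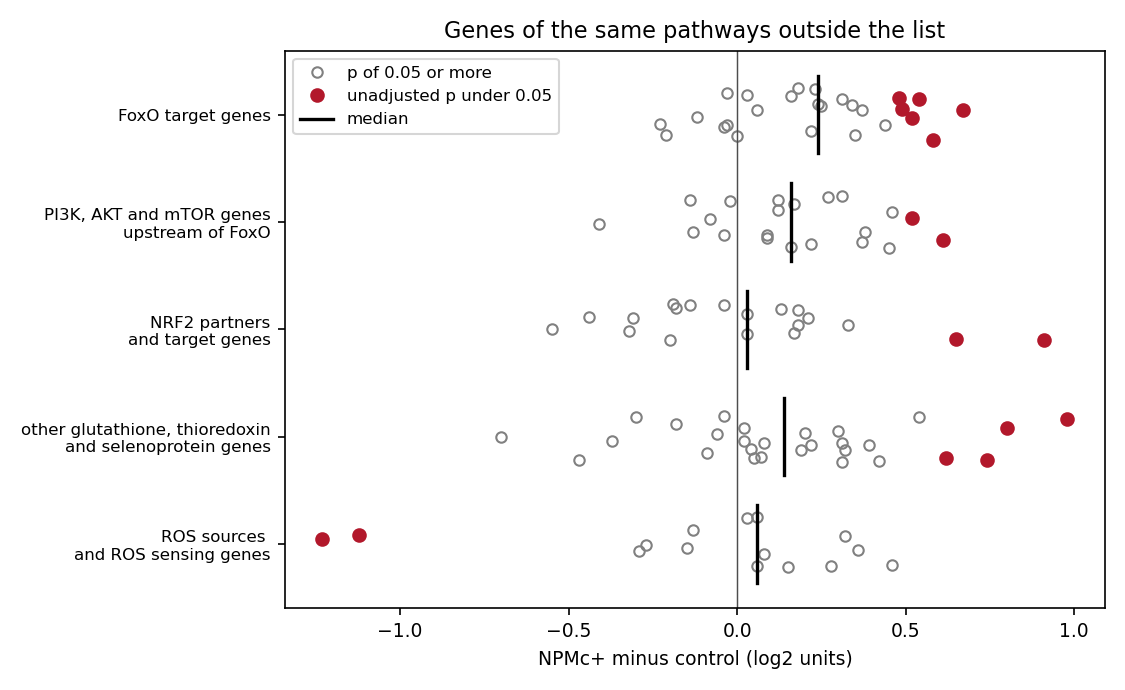
NPMc+ minus control in log2 units (x axis) for genes of 5 related lists outside the 33, with filled points for an unadjusted p under 0.05 in limma, open points for the rest and a bar at each list's median. The filled points of the first 4 lists lie to the right of 0, and those among the sources and sensors of reactive oxygen species, Cybb and Xdh, lie below -1.

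Of 15 genes that produce or sense reactive oxygen species, 2 were lower in NPMc+ and 0 higher, or 13.3% against 8.97% of all genes tested. Cybb, the catalytic subunit of the phagocyte NADPH oxidase, was 2.35-fold lower (-1.23 ± 0.36 log2 units), and Xdh, a xanthine oxidoreductase that can release superoxide, was 2.18-fold lower (-1.12 ± 0.39). Both differences lay in pairs 1 and 2, at -1.67 and -1.92 for Cybb and at -1.85 and -1.67 for Xdh, while pair 3 gave -0.1 and 0.15. Neutrophil and monocyte markers, of which 10 of 20 were lower, had pair medians of -0.94, -0.9 and -0.04, and their part in the differences of Cybb and Xdh was not tested. Neither gene was called without pair 1 or without pair 2.

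Most of the antioxidant and FoxO genes shared the signs of their differences in pairs 1 and 2. Of the 33 genes, 20 were lower in NPMc+ in pair 1 and higher in pair 2, or 60.6% against 25.7% of all genes tested, and 2 had the opposite signs in these pairs, or 6.06% against 21.6%. The median over the 33 genes was -0.18, 0.26 and 0.06 in pairs 1, 2 and 3, against 0.0, 0.05 and 0.03 over all genes tested. Among 5835 tested genes at levels between the quartiles of the 33 genes (5.55 to 8.41 log2 units), 31.1% were lower in pair 1 and higher in pair 2, and the pair medians were 0.02, 0.22 and 0.08. After quantile normalization 19 of the 33 genes, or 57.6%, had these signs, against 28.1% of all genes tested. This grouping was made after the values were seen and is a description of these 6 pools, without a test.

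**Figure D4:**
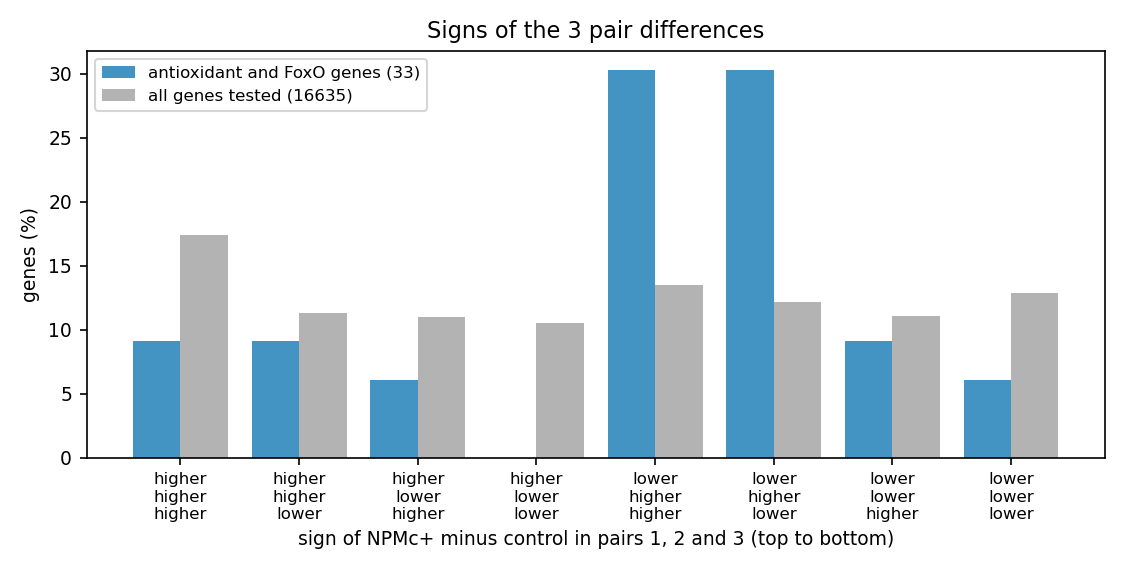
Percent of genes (y axis) with each of the 8 combinations of signs of NPMc+ minus control in pairs 1, 2 and 3 (x axis), for the 33 antioxidant and FoxO genes and for all 16635 genes tested. The combinations lower then higher in pairs 1 and 2 hold 30.3% of the 33 genes each, against 13.5% and 12.2% of all genes tested.

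The 20 genes split by pair 3. In 10 of them pair 3 was positive (for Sod2, 0.0 after rounding), as for the regulators Foxo3, Foxo4, Nfe2l2 and Keap1 and for Txnip, Gclc, Gss, Sod2, Nqo1 and Hmox1. In the other 10 pair 3 was negative, as for the peroxidase genes Gpx1, Gpx4, Gpx7, Prdx2 and Prdx3, the thiol genes Txn2, Txnrd2 and Glrx, and Sod1 and Gstp1. By role, the medians in pairs 1, 2 and 3 were -0.5, 0.56 and -0.43 for the 3 peroxiredoxins, and -0.22, 0.29 and 0.37 for the 4 genes of the NRF2 pathway.

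Genes with an NRF2 element core in a promoter went both ways. Of the 8, Txnrd1 and Srxn1 had differences of 0.5 and 0.29 log2 units, Txn2 0.25, Nfe2l2 0.18 and Gstp1 0.06, whereas Sod1, Gclm and Aldh1a1 had -0.06, -0.1 and -0.63. Their share of the tested genes with a promoter entry, 8 of 27, is set beside the 27.8% of all promoters that hold a core.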

How the data were processed

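The authors deposited log2 expression values of 41345 probe sets for 6 arrays, made from about 5 ng of RNA each per the labels' protocols. The submitters' processing notes name RMA, without a version. In 100% of probe sets the mean of same-numbered NPMc+ and control arrays was equal across the 3 replicate numbers within 0.001 log2 units (largest range 6.5e-05), and the deviations of paired arrays from the group means correlated at -1 in each pair. The numbers come from the sample titles. Because the deposited values hold no replicate effect, the fit used the replicate number as a block, with 2 residual and 4.537 prior degrees of freedom.

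Of the probe sets, 23521 carried 1 gene symbol, 1814 several and 16010 none. Genes below the 25th percentile of mean expression were not tested. The test was limma's moderated one (version 3.58.1, R 4.3.3, two-sided) over all genes, with Benjamini-Hochberg adjustment, and the fit was tested on simulated data. Counts of calls use an unadjusted p under 0.05. Intervals are 95% intervals of single genes, and values after ± are the moderated SE of the limma fit. The number of arrays limits the precision, and whether pools were separate experiments beyond separate animals is not stated in the sources used here. The members and all gene lists, among them the FoxO targets Cdkn1a and Cited2, were chosen with earlier results of these data known, and no list was tested as a set. For 3 listed genes a current symbol was found through RefSeq synonyms. Named genes were those called, at least 1.5-fold apart or without overlap of the groups, the FoxO and superoxide dismutase genes, Cat, Gpx1, Txnip, Nfe2l2 and Keap1, with other genes given by their differences, and in other lists the genes called. Figures used matplotlib 3.10.9 in Python 3.11.15.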

Additional observations from a re-analysis of the deposited data

How the results depend on the processing

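The 12 alternatives were the fit without the replicate block, other filters, scalings, variance priors and probe set choices, and leaving out each pair. In limma with the replicate block, an unadjusted p under 0.05 called 1 of the 33 genes higher and 1 lower, and 0 reached an adjusted p under 0.05. Without the replicate block the counts were 3 and 2, while 24.9% of all genes tested were called in either direction. In that fit 1 of the 33, Aldh1a1, had an adjusted p under 0.05, or 3.03% against 4.98% of all genes tested. The unblocked fit has 4 residual degrees of freedom although only 2 are left in the deposited values, and over all genes it called 828 at an adjusted p under 0.05. The higher count was 2 without the filter on dim genes. It was 0 among genes above the 50th percentile, after quantile normalization and after centring each pair. With an intensity trend, and with all probe sets fitted together, it was 0 too. In the same order, these fits called 8.19%, 10.1%, 7.95%, 8.62%, 8.46% and 6.69% of all genes tested in either direction. Leaving out a pair gave 0 higher in each case and 0 to 3 lower. Without pairs 1, 2 and 3 in turn, 8.23%, 6.94% and 7.56% of all genes tested were called in either direction. The difference of Gstp1 was -0.65 without pair 2, against 0.06 with all pairs and 0.58 without pair 3. Of 393 combinations of a gene and an alternative, 378 kept their side of the threshold, 5 gained a call, 9 lost one and 1 reversed. In 26 of them the sign of a difference that was never called turned.

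For the 5 pathway lists, calls without the block were 7 higher and 0 lower for FoxO targets, 7 higher and 0 lower for the PI3K, AKT and mTOR list, 2 higher and 3 lower for NRF2 partners and targets, 9 higher and 2 lower for the wider glutathione list, and 1 higher and 3 lower for sources and sensors of reactive oxygen species. Over all genes tested, the fit without the block called 24.9% at this threshold, against 8.97% with the block. The list counts without the block are to be read beside that larger share. The following alternatives were chosen after seeing the data. FoxO targets had 2 higher after quantile normalization and 3 after centring, and NRF2 partners 1 lower under both. Leaving out a pair gave 1 to 4 higher for FoxO targets, 0 to 2 higher and 0 to 1 lower for the PI3K list, 1 to 2 higher and 0 to 2 lower for NRF2 partners, 2 to 4 higher and 0 to 1 lower for the glutathione list, and 0 to 2 lower for the sources and sensors. Of all genes tested, 7.95% were called after quantile normalization and 8.62% after centring. Without pairs 1, 2 and 3 in turn, 8.23%, 6.94% and 7.56% were called. The causes were not tested.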
